A study of Mus musculus with 4 samples.

Results

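Ephrins, Slits, netrins and their receptors form families of guidance cues, and their transcripts were compared here between the corticotropes and melanotropes of the mouse pituitary. The members are all RefSeq transcripts in the deposited expression table whose symbol names an ephrin (Efna, Efnb), an Eph receptor (Epha, Ephb), a Slit, a Robo receptor, a netrin or netrin-G (Ntn, Ntng), Dcc or an Unc5 receptor. The symbols were matched by a fixed pattern that used no measured value. It found 61 transcripts of 40 genes among 33072 transcripts of 24063 genes. Corticotropes, the ACTH cells of the anterior lobe, and melanotropes, the POMC cells of the intermediate lobe, were each measured in 2 RNA-seq libraries. All 4 libraries came from GFP-positive cells sorted from dissected pituitary lobes; the mice carried POMC-EGFP on strain C57B6, no treatment is named in the labels, and all used total RNA after ribosomal depletion. The sort rests on the POMC-EGFP transgene, so any other cell that carried GFP or passed the gate is in these libraries too. The labels used here give neither age nor sex, and do not state whether replicates are separate animals or sorts, so the p-values measure only the spread between these libraries, which may be technical.

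Ephrins are membrane-bound ligands, held by a lipid anchor in the A class and by a transmembrane stretch in the B class, and Eph receptors are the receptor tyrosine kinases that bind them at contacts between cells. Slits are secreted proteins that bind Robo receptors and are best known for repelling axons and migrating cells. Netrins attract through Dcc and repel through Unc5 receptors, while the netrin-Gs are lipid-anchored relatives that bind other partners at synapses. In endocrine tissue the same families are known for contact between neighbouring cells and for vessel growth.

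Values below are FPKM (reads divided by transcript length and by library total) of each gene's longest transcript, rescaled between libraries and given as the mean ± SD of n = 2 libraries unless library values are given. A difference is melanotrope minus corticotrope on the log2(FPKM + 1) scale, and a ratio is that of the rescaled means. A gene is called when limma's adjusted p over 13043 genes is under 0.05. All 5 corticotrope markers tested were called lower and all 5 melanotrope markers higher in melanotropes. These lists were chosen with earlier results of these data known, so this describes the libraries and is no independent check of their labels. A gene was tested when it had at least 1 FPKM in at least 2 libraries. Avpr1b and Neurod1 were under 1 FPKM in both melanotrope libraries, which fixed their direction. The implied reads over the longest transcripts ranged from 97623343 to 187279455 per library. Transcripts of other anterior-lobe hormone cells summed to 5808 and 5658 FPKM in corticotropes against 14.4 and 63.5 in melanotropes, with 11 of 11 of these markers lower. Of these, Tshb, Pou1f1, Ghrhr, Gnrhr, Dlk1 and Foxl2 were under 1 FPKM in both melanotrope libraries, so they could only come out lower. Endothelial markers, 10 genes, summed to 15.5 and 24.1 against 8.08 and 5.58, and 3 of 5 tested were lower. Pericyte and smooth muscle markers summed to 4.02 and 4.47 against 3.04 and 3.07, and red blood cell markers to 26.0 and 32.4 against 3.62 and 5.25. Higher in melanotropes were sums of glial and pituicyte markers (7.88 and 8.91 against 31.4 and 33.8, with 4 of 5 tested higher), of fibroblast markers (7.49 and 9.24 against 19.3 and 16.6) and of immune markers (5.26 and 7.004 against 15.2 and 18.9). The folliculostellate and stem cell list lay at 28.5 and 36.9 against 26.5 and 30.1, with 2 of 4 tested higher (Sox2 and Sox9) and 2 lower (Aldh1a2 and Cdh26). The neuron list lay at 28.0 and 26.2 against 50.0 and 49.1, with 4 of 5 tested higher and Slc17a6 lower. Among the markers counted here, Emcn, Rax, Sox9, Cdh26, Oxt and Slc17a6 were likewise tested through the libraries of a single cell type, which fixed their direction. Some defining markers were under 0.3 FPKM in all libraries: Sox10, Olig2 and S100b of glia, Cspg4, Acta2 and Myh11 of pericytes and smooth muscle, and Ptprc and Cd3e of immune cells. The fibroblast, neuron and folliculostellate lists held no such marker. The part that such cells have in the differences below was not tested, and fewer cells of a type and less RNA per cell cannot be told apart in bulk samples.

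Of the 40 genes, 28 had at least 1 FPKM in at least 2 libraries and were tested. In melanotropes 9 of them were called higher and 9 lower, 32.1% of those tested in each direction, where 18.7% of all genes tested were called higher and 17.5% lower (36.3% in either direction). At 2-fold or more on the log2 scale 6 were higher (background 4.17%) and 5 lower (background 4.69%, and 8.86% in either direction). The median difference of the 28 genes was -0.12, against 0.01 over all genes tested. Of the 9 lower genes, 6 passed the filter through the corticotrope libraries alone: Efnb2, Epha3, Epha7, Robo2, Slit2 and Unc5d. These had to differ in this direction, so the counts and the adjusted p-values of these 6 genes below are a description. The 17 ligand genes added to 33.0 ± 2.34 FPKM in corticotropes and 81.3 ± 0.730 in melanotropes, while the 23 receptor genes added to 74.1 ± 0.396 and 75.7 ± 6.15. Much of the ligand gap was Slit1, at 7.88 ± 0.0762 against 38.3 ± 1.90 FPKM, and of 12 ligands tested 6 were called higher and 2 lower. The near-equal receptor sums held 3 genes called higher and 7 called lower of 16 tested, and without rescaling those sums were 90.1 and 85.6 against 62.9 and 64.6.

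**Figure D1:**
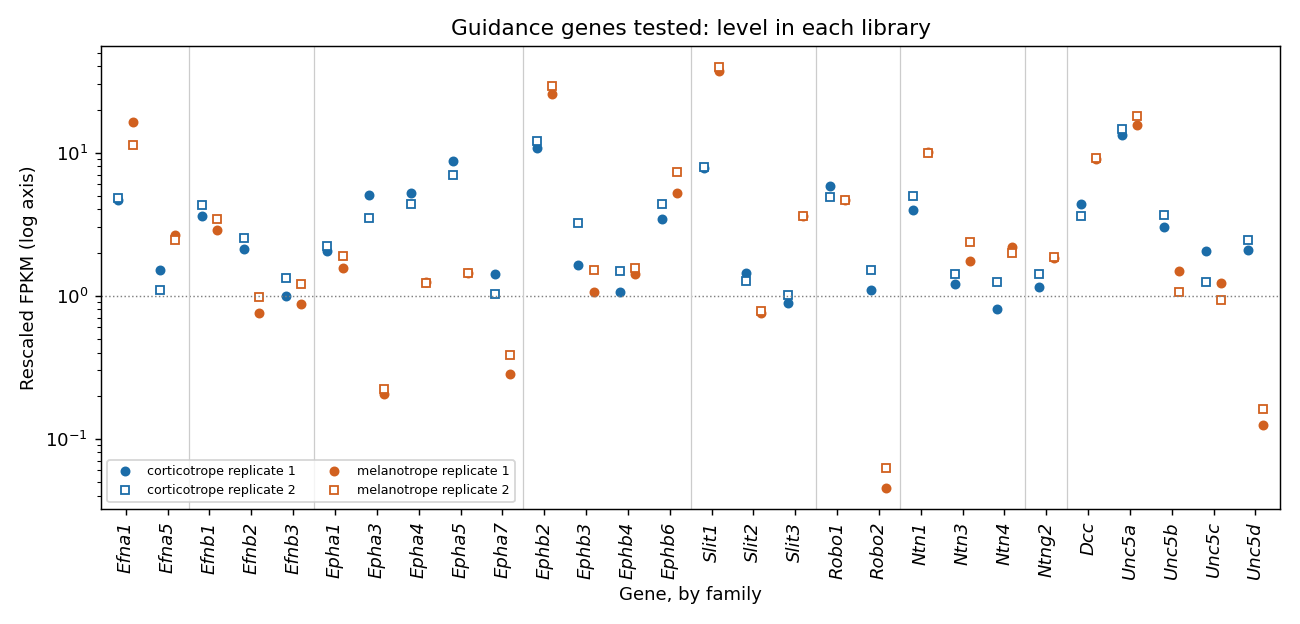
Level of each of the 28 guidance genes tested in each of the 4 libraries (rescaled FPKM, log axis; filled circles, replicate 1; open squares, replicate 2; dotted line, 1 FPKM; vertical lines part the families). Slit1 lies near 8 FPKM in corticotropes and at 37.0 and 39.7 in melanotropes, while Epha3, Robo2 and Unc5d lie under 0.3 FPKM in melanotropes.

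The Eph receptors differed between the cell types in make-up. Summed over 14 genes they stood at 41.3 ± 0.0631 FPKM in corticotropes and 42.3 ± 4.90 in melanotropes. In corticotropes the A class took 57.7% and 47.3% of the summed Eph FPKM of a library, and in melanotropes it took 13.6% and 12.8%. These shares are formed within a library and do not depend on the scaling between libraries. Of the A class, Epha3, Epha4 and Epha5 together held 46.1% and 35.9% in corticotropes and 7.46% and 6.34% in melanotropes. Ephb2 alone held 26.2% and 29.2% in corticotropes and 66.3% and 64.3% in melanotropes. Both melanotrope libraries lay outside the range of the corticotrope libraries for each of these shares.

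**Figure D2:**
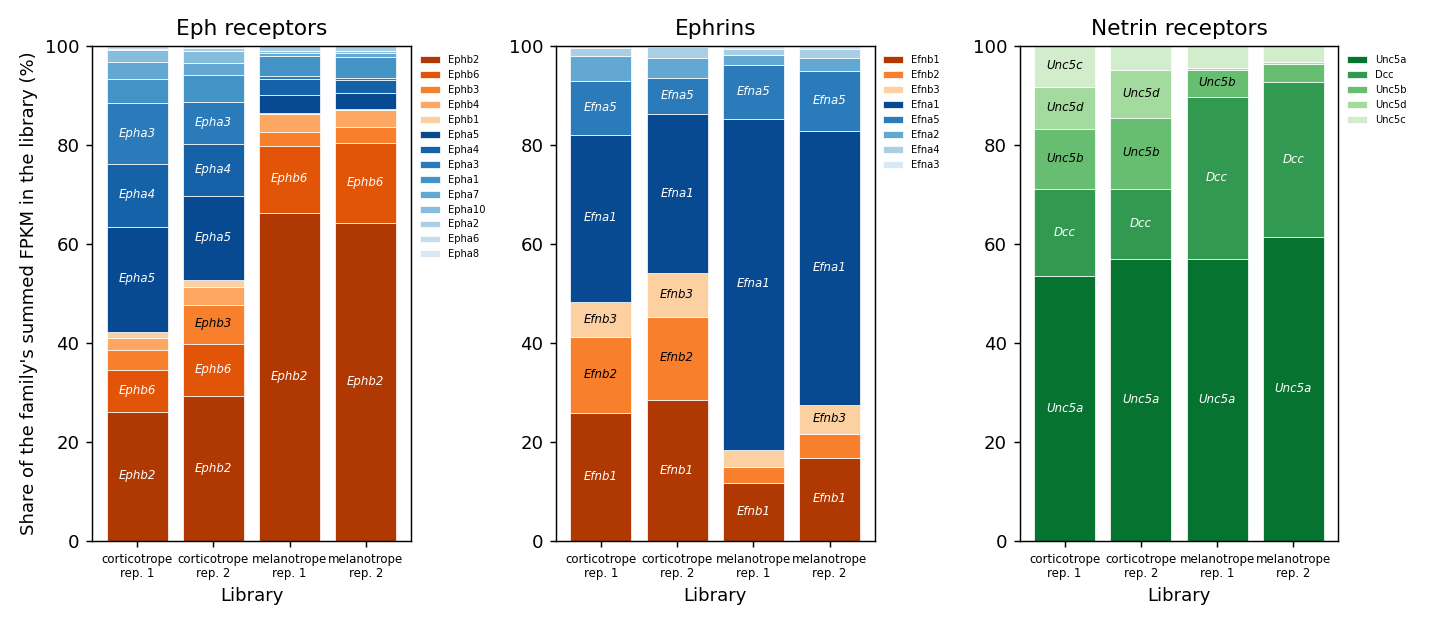
Share of each gene in its family's summed FPKM, per library (stacked bars, % of the library's own sum; orange, B class; blue, A class; green, netrin receptors). Ephb2 fills 66.3% and 64.3% of the Eph receptor bars in melanotropes, and Dcc takes 32.7% and 31.2% of the netrin receptor bars there against 17.6% and 14.1% in corticotropes. The netrin receptor bars hold Dcc and Unc5a to Unc5d alone.

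Of 9 EphA genes 5 were tested, and 4 of them, Epha3, Epha4, Epha5 and Epha7, were called lower in melanotropes, with none higher. Of all genes tested 17.5% were called lower, and Epha3 and Epha7 passed the filter through the corticotrope libraries alone. EphA receptors mainly bind ephrin-As, and Epha4 binds ephrin-Bs as well. Windows before the starts of genes with large changes are shown here to give the sequence context of genes that moved together or in opposite directions: among genes with a window Epha3 had the largest fall and Efna1 the largest rise on the log2(FPKM + 1) scale (by ratio these were Robo2 and Slit3), and Epha5 and Ephb2 were added after their values had been seen. Each is the 250 bases before the start of 1 RefSeq model on GRCm38.p6, 5′ to 3′ on the gene's strand, with every CG in capitals; Epha3 is at chr16:63864176-63864425, Epha5 at chr5:84417383-84417632, Efna1 at chr3:89279646-89279895 and Ephb2 at chr4:136836013-136836262, all on the minus strand.
Epha3: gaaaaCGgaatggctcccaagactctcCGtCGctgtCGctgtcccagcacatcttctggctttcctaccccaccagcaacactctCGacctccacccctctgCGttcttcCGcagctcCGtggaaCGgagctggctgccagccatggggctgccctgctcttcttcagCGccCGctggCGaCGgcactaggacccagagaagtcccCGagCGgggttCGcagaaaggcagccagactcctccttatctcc
Epha5: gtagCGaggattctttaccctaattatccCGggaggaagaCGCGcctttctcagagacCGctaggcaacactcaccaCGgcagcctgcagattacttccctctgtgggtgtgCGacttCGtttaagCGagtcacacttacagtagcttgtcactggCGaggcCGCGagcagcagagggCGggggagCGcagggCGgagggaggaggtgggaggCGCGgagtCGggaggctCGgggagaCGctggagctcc
Efna1: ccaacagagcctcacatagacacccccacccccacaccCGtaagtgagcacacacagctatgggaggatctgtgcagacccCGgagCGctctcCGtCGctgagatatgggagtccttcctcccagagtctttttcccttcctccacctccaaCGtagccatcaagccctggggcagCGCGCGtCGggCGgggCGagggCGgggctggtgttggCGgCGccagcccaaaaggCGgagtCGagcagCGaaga
Ephb2: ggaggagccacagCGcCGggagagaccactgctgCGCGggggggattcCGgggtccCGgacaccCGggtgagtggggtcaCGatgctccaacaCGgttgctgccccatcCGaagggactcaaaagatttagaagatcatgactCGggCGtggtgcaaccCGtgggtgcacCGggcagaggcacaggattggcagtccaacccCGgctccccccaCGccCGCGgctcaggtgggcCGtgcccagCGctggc
The windows hold 16, 20, 18 and 20 CG pairs in that order, whether the gene was higher or lower, and none overlaps an annotated exon. A second RefSeq model of Efna1 starts further upstream, at 89280951, so the Efna1 window lies inside that model.

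Over the 35 members with such a window, including all that were called apart from Slit1, Ntn1, Dcc and Unc5d, the median was 17 CG pairs against 16 over the windows of all genes tested. The 35 include the 12 members that were not tested, so the sets compared here are unlike. For Robo2 and Efnb2, both called lower, the RefSeq start used lies 913 and 469 bases from that of the deposited model. Bases after a start were found in an annotated transcript of the gene for 32 of the 35. At least 10 CG pairs were found in 29 of 35 members, in 6 of 6 called higher and in 8 of 8 called lower, and in 71.9% of 12206 windows of tested genes. The E box CANNTG, the core of sites for bHLH factors, was found on either strand in 16 of 35 members (2 of 6 higher, 2 of 8 lower) and in 57.6% of windows of tested genes. The homeodomain core TAAT, which lies within the Pitx site TAATCC, was found in 11 of 35 (0 of 6 higher, 2 of 8 lower) and in 39.2%. TAATCC was found in 2 of 35 members, Robo3 and Robo4, which were not tested, against 5.07%. GGGCGG, the core of SP1 sites, was found in 24 of 35 against 57.8%. AAAGGTCA, bound by Nr4a receptors, and the T-box site AGGTGTGA were found in 0 of 35 members, and in 0.868% and 0.639% of windows of tested genes. A match is a run of letters in 1 window and not a shown binding site.

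Epha3 (chromosome 16, 63545218 to 63864157) was at 5.06 and 3.48 FPKM in the corticotrope libraries and at 0.204 and 0.223 in the melanotrope libraries. The melanotrope values were 20.0 times lower in the mean, on 156 and 167 implied reads. Its difference was -2.10 (SE 0.15; limma adjusted p = 2.78e-04), the largest fall of any member on this scale, though by ratio Robo2 was lower still. Epha5 (chromosome 5, 84054765 to 84417382), the most abundant A-class receptor in corticotropes, was at 8.76 and 6.98 FPKM against 1.441 and 1.450, 5.45 times lower in melanotropes. Its difference was -1.85 (SE 0.12, limma adjusted p = 1.74e-04). The libraries of the cell types did not overlap, as in 37 of the 40 members, called or not. Epha4 (chromosome 1, 77367185 to 77515088) was at 5.22 and 4.35 against 1.25 and 1.23 FPKM, a difference of -1.37 (SE 0.11; limma adjusted p = 3.28e-04). It was measured above 1 FPKM in both melanotrope libraries, as was Epha5, while Epha3 was not. Epha7, whose models include a short form, was at 1.22 ± 0.271 against 0.334 ± 0.0711 FPKM (difference -0.73, limma adjusted p = 0.00604). Epha1 was at 2.14 ± 0.126 against 1.72 ± 0.242 FPKM and did not pass (limma adjusted p = 0.183). Its exons overlap those of Zyx, which runs in the opposite direction, over 236 bases, and whether counting used strand is unknown, which leaves its level uncertain.

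Of 5 EphB genes 4 were tested, and 2 of them, Ephb2 and Ephb6, were called higher and none lower. Of all genes tested 18.7% were called higher. Ephb2 (chromosome 4, 136653610 to 136836011), a receptor for ephrin-Bs that also signals at synapses, was at 10.8 and 12.1 FPKM in corticotropes and at 25.7 and 29.4 in melanotropes. The melanotrope mean was 2.41 times higher, with a difference of 1.20 (SE 0.10; limma adjusted p = 4.19e-04). Its level lay above that of 60.3% of all genes tested in corticotropes and of 84.2% in melanotropes. Ephb6, a receptor whose kinase domain is inactive, was at 3.45 and 4.40 against 5.23 and 7.36 FPKM, a difference of 0.56 (SE 0.17; limma adjusted p = 0.0444). That call sits close to the threshold and held under 12 of 17 alternatives (range of limma adjusted p 5.93e-04 to 0.36). It was lost without rescaling (0.36), with a pseudocount of 5 (0.0506) and with no filter (0.112). Leaving out corticotrope replicate 1 (difference 0.42) or melanotrope replicate 2 also lost it. Ephb3 was at 1.65 and 3.22 against 1.055 and 1.499 FPKM and did not pass (limma adjusted p = 0.108), though without corticotrope replicate 1, the lower of its group, it did (0.00274; range 0.00274 to 0.304). Ephb4, known from veins, was at 1.27 ± 0.298 against 1.49 ± 0.101 FPKM, and its libraries overlapped between cell types (limma adjusted p = 0.415; difference 0.14, and -0.14 on the deposited scale). Ephb4 shares 33 exon bases with Zan on the opposite strand.

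Among the ephrins the A class had 2 members called higher of 2 tested, and the B class 1 called lower of 3 tested. Of all genes tested 18.7% were called higher and 17.5% lower. The A-class genes took 51.6% and 45.9% of the summed ephrin FPKM in corticotrope libraries and 81.5% and 72.5% in melanotrope libraries. Efna1 (chromosome 3, 89271730 to 89279645) was at 4.65 and 4.85 FPKM in corticotropes and at 16.3 and 11.3 in melanotropes. Both melanotrope values lay above both corticotrope values, yet they were the more widely spread, with a ratio of means of 2.91 and a difference of 1.34 (SE 0.16; limma adjusted p = 0.00161). Efna5 was higher too, at 1.30 ± 0.291 against 2.56 ± 0.1503 FPKM (difference 0.63, limma adjusted p = 0.00872). Without rescaling it was not called (adjusted p = 0.0889, the highest of a range that began at 6.32e-04). Efnb2, an arterial ephrin that is also made outside vessels, was lower, at 2.10 and 2.53 against 0.760 and 0.979 FPKM (difference -0.83, SE 0.12, limma adjusted p = 0.00291). Of 5 endothelial markers tested, Plvap, Emcn and Kdr were called lower in the same melanotrope libraries. Plvap was at 7.92 ± 2.70 against 1.65 ± 0.593 and Emcn at 2.27 ± 0.531 against 0.661 ± 0.252 FPKM. Emcn passed the filter through the corticotrope libraries alone. Pecam1 and Esam were not called (limma adjusted p = 0.0539 and 0.151). The part of endothelium in the lower Efnb2 was not tested. Efnb1 at 3.94 ± 0.518 against 3.17 ± 0.390 and Efnb3 at 1.16 ± 0.234 against 1.04 ± 0.232 FPKM did not pass (limma adjusted p = 0.157 and 0.639).

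The Slit ligands gave the largest rise of all members. Slit1 (chromosome 19, 41600257 to 41743856) was at 7.83 and 7.93 FPKM in corticotropes and at 37.0 and 39.7 in melanotropes. Its melanotrope mean was 4.86 times higher, with a difference of 2.15 (SE 0.08; limma adjusted p = 3.74e-05), and replicates lay close together beside that gap. Its level was above that of 47.2% of genes tested in corticotropes and of 89.9% in melanotropes. Slit3 (chromosome 11, 35121456 to 35708507) was at 0.892 and 1.02 against 3.60 and 3.58 FPKM, 3.76 times higher in melanotropes (difference 1.23, SE 0.09, limma adjusted p = 2.89e-04). Slit2 went the other way, at 1.35 ± 0.116 against 0.770 ± 0.0145 FPKM (difference -0.41, SE 0.10, limma adjusted p = 0.0214). The Slit2 call was lost without corticotrope replicate 1 (adjusted p = 0.0616), melanotrope replicate 1 (0.0895) or melanotrope replicate 2 (0.0761; range 0.00221 to 0.0895). Within a library Slit1 held 77.1% and 77.6% of the summed Slit FPKM in corticotropes and 89.5% and 90.1% in melanotropes.

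Of the Robo receptors 2 of 4 were tested and none was called higher, where 18.7% of all genes tested were called higher. Robo1 (chromosome 16, 72663149 to 73046100), the most abundant of them, was at 5.84 and 4.91 against 4.69 and 4.70 FPKM and did not pass (difference -0.16, SE 0.10, limma adjusted p = 0.269). Robo2 (chromosome 16, 73892306 to 74410912) was at 1.09 and 1.52 FPKM in corticotropes and at 0.0454 and 0.0620 in melanotropes, on 70 and 94 implied reads there. This is 24.3 times lower in the mean, and since 1 is added to such low values the difference of -1.12 (SE 0.12; limma adjusted p = 0.00118) understates it. With 0.1 added in place of 1 its difference was -3.18. The ratio of Slit1 to Robo1 within a library, which needs no scaling between libraries, was 1.34 and 1.62 in corticotropes and 7.90 and 8.45 in melanotropes. Robo4, a receptor of endothelium, reached 0.614 and 1.052 FPKM in corticotropes against 0.216 and 0.124, and was not tested. It was highest in corticotrope replicate 2, as was the endothelial sum of 24.1 FPKM. Robo3 was at or under 0.165 FPKM in all libraries.

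Netrin-1 and its receptor Dcc were both higher in melanotropes. Ntn1 (chromosome 11, 68209364 to 68386826) was at 3.94 and 4.94 against 10.04 and 9.86 FPKM, 2.24 times higher, with a difference of 1.02 (SE 0.11; limma adjusted p = 0.00106). Dcc (chromosome 18, 71253632 to 72351069) was at 4.36 and 3.60 against 8.996 and 9.14 FPKM, 2.28 times higher, with a difference of 1.02 (SE 0.10; limma adjusted p = 7.88e-04). For both genes each melanotrope library lay above each corticotrope library, though the cell types did not overlap in 37 of the 40 members, called or not. Ntn4, a basement membrane netrin, was higher at 1.03 ± 0.306 against 2.09 ± 0.163 FPKM (difference 0.61, limma adjusted p = 0.0142). It was not called without melanotrope replicate 1 (adjusted p = 0.0519) or without rescaling (0.0739; over all alternatives 0.00259 to 0.0739). Ntn3 at 1.31 ± 0.145 against 2.04 ± 0.437 FPKM and the netrin-G gene Ntng2 at 1.29 ± 0.192 against 1.85 ± 0.0147 FPKM fell just short (limma adjusted p = 0.0603 and 0.0566). Ntn3 passed without melanotrope replicate 1 (adjusted p = 0.0342; range 0.00764 to 0.519) and Ntng2 without corticotrope replicate 2 (0.0382; range 0.0192 to 0.862), and both passed when the libraries were set to equal sums without Pomc (0.0382 and 0.0413). Both share exon bases with other genes, 139 with the antisense gene BC028777 and 89 with Tbc1d24 for Ntn3, and 558 with 6530402F18Rik for Ntng2, so their levels are uncertain.

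Of the 4 Unc5 receptors none was called higher and 2 were called lower, where 17.5% of all genes tested were called lower. Unc5a (chromosome 13, 54949432 to 55006018), the most abundant of Dcc and the Unc5 receptors in all 4 libraries, was at 13.3 and 14.5 against 15.7 and 18.0 FPKM. It did not pass (difference 0.26, SE 0.10, limma adjusted p = 0.0873). Without rescaling the difference was -0.20, and with libraries set to equal sums without Pomc the gene was called higher (limma adjusted p = 0.0269). Neo1, a netrin receptor that is not among the members, lay above it at 31.0 and 29.8 against 25.8 and 30.6 FPKM. Unc5a shares 34 exon bases with Hk3 on the opposite strand. Unc5d (chromosome 8, 28646717 to 29219636) was at 2.10 and 2.46 FPKM in corticotropes and at 0.125 and 0.161 in melanotropes, 15.9 times lower. Its difference of -1.52 (SE 0.11, limma adjusted p = 2.28e-04) rests on 222 and 280 implied reads in melanotropes. Unc5d passed the filter through the corticotrope libraries alone, which fixed the direction. Unc5b, a receptor known from sprouting vessels, was lower at 3.03 and 3.63 against 1.47 and 1.07 FPKM (difference -0.93, SE 0.13, limma adjusted p = 0.00278). Unc5c at 2.05 and 1.24 against 1.23 and 0.929 FPKM did not pass (limma adjusted p = 0.172), but did without corticotrope replicate 2, the lower of its group (0.0176; range 0.0176 to 0.591). Dcc over Unc5a within a library was 0.328 and 0.248 in corticotropes and 0.573 and 0.507 in melanotropes. Of the summed FPKM of Dcc and the 4 Unc5 genes, Dcc held 17.6% and 14.1% in corticotropes and 32.7% and 31.2% in melanotropes. Unc5d held 8.45% and 9.67% against 0.453% and 0.549%.

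**Figure D3:**
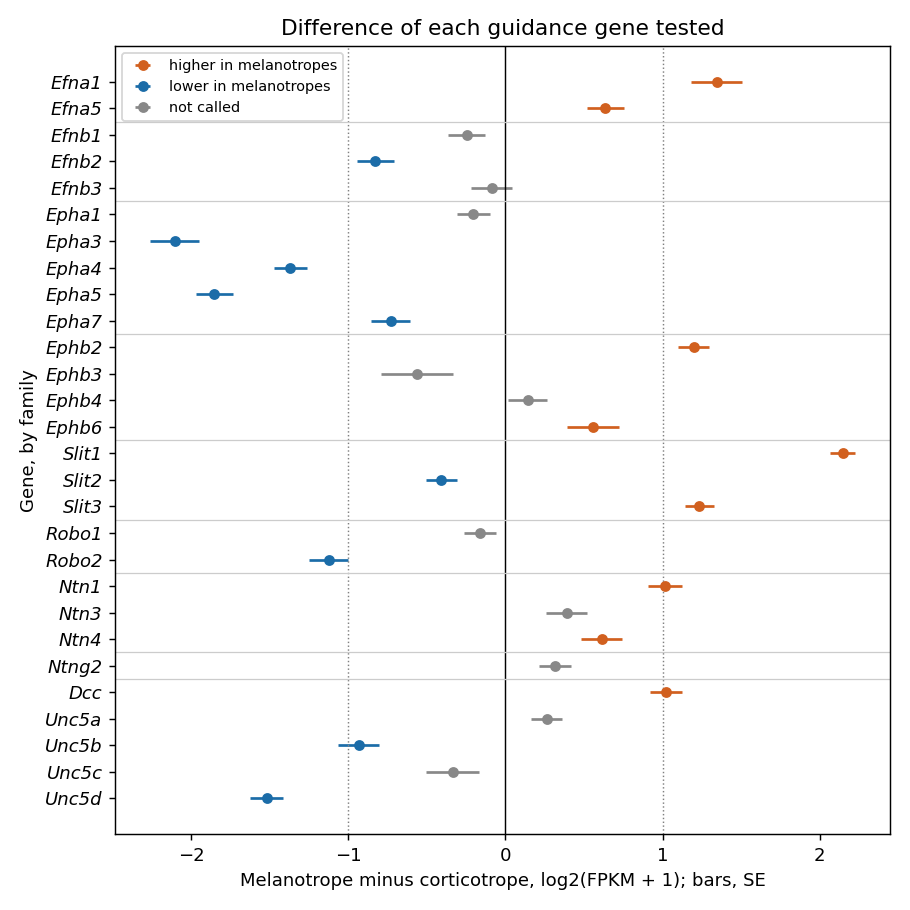
Melanotrope minus corticotrope difference of each of the 28 guidance genes tested, on the log2(FPKM + 1) scale, with its standard error (bars; dotted lines, 2-fold; colours, call at a limma adjusted p of 0.05). Slit1 at 2.15 and Epha3 at -2.10 mark the ends, and the 4 called EphA genes all lie left of 0.

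The other 12 genes were under the filter: Efna2, Efna3, Efna4, Epha2, Epha6, Epha8, Epha10, Ephb1, Robo3, Robo4, Ntn5 and Ntng1, with values from 0 to 1.052 FPKM. Epha10 and Robo4 each reached 1 FPKM in 1 library, Epha10 at 0.982 and 1.03 FPKM in corticotropes against 0.125 and 0.149. When all genes above 0 were tested, Epha10 (difference -0.82, limma adjusted p = 0.00194), Ephb1 (-0.52, 0.00323), Robo4 (-0.64, 0.0335) and Epha6 (-0.20, 0.0265) were called lower in melanotropes and Efna3 higher (0.13, 0.0324). Epha6 had 9 and 10 implied reads in melanotropes, and Epha8 had 10 and 0. At such read numbers a level cannot be told from that of a few reads.

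**Figure D4:**
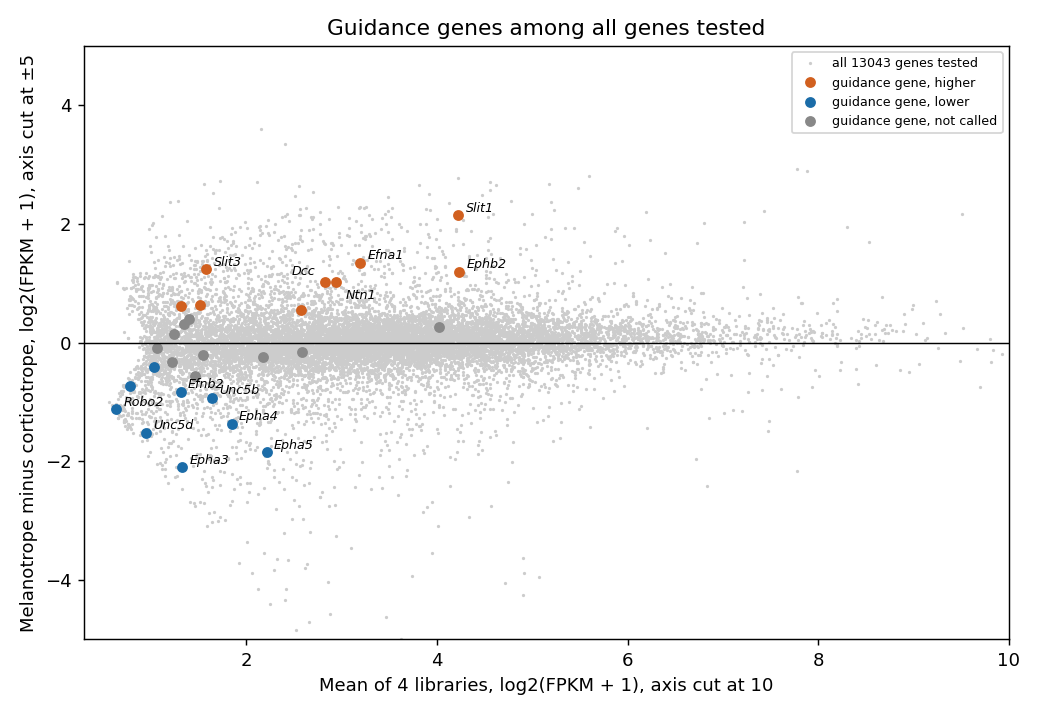
Mean level of each gene over the 4 libraries (log2(FPKM + 1), axis ended at 10) against its melanotrope minus corticotrope difference (axis ended at ±5), with guidance genes as large points over all 13043 genes tested in grey. Slit1 and Ephb2 are the called guidance genes with the highest mean level, and most called lower lie toward the left, at low levels.

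Genes that act beside or below these receptors were taken from a list of 83 co-receptors, adaptors, kinases, cytoskeletal regulators and heparan sulfate genes. Of 75 tested 20 were called higher and 16 lower in melanotropes, 48.0% in all, where 36.3% of all genes tested were called. The list's median difference was -0.03. The largest rises among those called were in Vav3 (1.78 ± 0.360 against 8.23 ± 0.735 FPKM) and Ngef (2.13 ± 0.668 against 8.31 ± 1.52), exchange factors that Eph receptors engage. The others were the actin-binding gene Ablim1 (3.30 ± 0.111 against 11.8 ± 0.336), the netrin-G2 ligand Lrrc4 (1.74 ± 0.153 against 6.29 ± 1.86) and the kinase Pak3 (24.96 ± 3.05 against 65.3 ± 3.95 FPKM). The largest falls were in Enah (15.2 ± 0.0823 against 2.80 ± 0.334) and Evl (6.14 ± 0.390 against 1.76 ± 0.352), which are both Ena/VASP actin regulators, and in the kinase Pak1 (33.4 ± 4.09 against 8.17 ± 2.18). They were followed by the adhesion gene Dscaml1 (1.44 ± 0.442 against 0.0423 ± 0.0278) and the Rac activator Dock1 (3.31 ± 0.0445 against 1.02 ± 0.0884 FPKM). Dscaml1 and Grb10, both counted among the 16 lower, passed the filter through the corticotrope libraries alone, which fixed their direction. Pak1 and Pak3, kinases of the same group, were called in opposite directions.

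Of the 40 genes, the authors' deposited table gave 2 an FDR under 0.05, Slit1 (log2 fold change 2.35, FDR 1.17e-08) and Ephb2 (1.26, 0.0193), where 2.09% of the longest transcripts of all genes had one. The same table gave 8 of the 40 a log2 fold change of exactly 0. Epha5 (FDR 0.0922), Epha3 (0.136) and Efna1 (0.137) were next in the authors' deposited table, with the same directions as above. Slit2, called lower here, had a log2 fold change of 0.057 with a p-value of 1 in the authors' deposited table, the opposite sign. Efnb3 had the same 0.057 there, and Epha7, Epha10, Ephb1 and Robo4 all had -3.14. Such shared values do not separate genes at low levels, so the sign for Slit2 carries little weight.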

How the data were processed

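Total RNA of 4 sorted libraries was depleted of ribosomal RNA and read as 50 bp paired ends, per the labels. The authors' FPKM, 1 per transcript and library with 2 decimals, were made by HOMER (analyzeRepeats, exons, mm10), and the authors' log2 fold change, p-value and FDR from getDiffExpression run on that table, per the file headers. The authors also used TopHat and edgeR, per the submitters' processing notes. Tool versions and the strand setting: not given in the sources used here.

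From the deposited FPKM each gene's longest transcript was taken, libraries were divided by unweighted trimmed-mean factors (trim 30% of M, 5% of A; 1.22, 1.15, 0.882 and 0.807), and genes with at least 1 FPKM in at least 2 libraries were fitted with limma 3.58.1 in R 4.3.3 (trend, two-sided, Benjamini-Hochberg over 13043 genes) on log2(FPKM + 1). The 4 deposited columns have almost the same sum, so the larger share of Pomc in melanotropes (49.7% and 50.9% against 27.8% and 27.2%) lowers all else there before rescaling. The design named this test for normalized values. An exact permutation test of 2 against 2 cannot go below 0.333.

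FPKM times length of transcripts up to 80 bases fell on whole multiples of a step (within 0.1) for 100% of low values in each library, which gave the implied reads. Whether a read pair counts as 1 or 2 is not given. The fit was run on simulated data with noise drawn from its own variances. Only genes well above 1 FPKM in corticotropes were changed there, so genes at low levels were not covered.

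Members, lists and settings were chosen with earlier results of these data known. Library values are printed for genes called at 2-fold or more and for the 5 with the highest mean, and for further members chosen after their values were seen. Up to 5 list genes per direction with the largest called change are named. Positions are 1-based, on mm10, as the authors gave them. Windows before gene starts are from RefSeq on GRCm38.p6 (35 of 40 genes matched by symbol), and exon overlaps from GENCODE M21. None of the 18 called genes shares exon bases with another gene there, and 12 of the 40 do.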

Additional observations from a re-analysis of the deposited data

How the results depend on the processing

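Of the 18 called guidance genes 14 were called in the same direction under every alternative in which they were tested; the exceptions were Efna5, Ntn4, Ephb6 and Slit2. Of those 14, Efnb2, Epha3, Epha7, Robo2 and Unc5d passed the filter through the corticotrope libraries alone, which fixed their direction. Epha7 and Robo2 were not tested when the filter was set on the mean of the libraries. All alternatives reuse the same libraries. Without rescaling, where the median of all genes lay at -0.42, 15 guidance genes were called lower and 6 higher (7 and 1 at 2-fold). There 11 pathway genes were higher and 49 lower, and of all genes 954 were higher and 8639 lower (282 and 1182 at 2-fold). There Ephb4 (-0.14) and Unc5a (-0.20) changed sign without passing. Efnb3 did so without corticotrope replicate 2 (0.023) and without melanotrope replicate 1 (0.029). At 2-fold, 8 guidance genes were lower with a pseudocount of 0.1, 8 with one of 0.5 and 8 with voom on implied reads; a pseudocount of 5 gave 1 higher and 0 lower, though 8 higher and 9 lower were called in all. Of all genes at 2-fold, 203 were higher and 202 lower with a pseudocount of 5, and 819 and 925 with voom. With every transcript as its own row 3799 were higher and 3610 lower (878 and 951 at 2-fold), since more rows were tested. Leaving out 1 library, for the genes tested with all 4, gave 8 to 10 guidance genes higher and 8 to 10 lower. Whether same-numbered libraries share more than a number, such as a sort or a batch, is not stated in the labels. Their deviations correlated at 0.526 across genes, and the main fit used cell type alone. With replicate number as a block 12 guidance genes were higher and 12 lower, and 25 pathway genes were lower. FPKM to 2 decimals and low read numbers limit genes under about 0.1 FPKM.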

Other observations

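Some members lie on the same chromosome and differed widely in level. Efna1, Efna3 and Efna4 lie on chromosome 3 with gaps of 35305 and 10513 bases, and in melanotropes they stood at 13.8 ± 3.51, 0.147 ± 0.0327 and 0.327 ± 0.0455 FPKM. Ephb2 at 27.6 ± 2.58 FPKM and Epha8, listed at 0.0113 and 0 in the same libraries, are 93407 bases apart on chromosome 4. Robo1 and Robo2 are 846205 bases apart on chromosome 16, and of the pair Robo2 alone was called. Robo4 and Robo3, 2022 bases apart on chromosome 9, were both at or under 1.052 FPKM.

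The models of Epha10 gave unequal values. The model of 5167 bases was at 0.982 and 1.03 FPKM in corticotropes, whereas the model of 1231 bases, which has the same start and ends at 124886508 where the longer one ends at 124917800, was at 0.0737 and 0.130. For Epha7 the short model of 3260 bases was at 1.61 and 1.16 FPKM in corticotropes and 0.329 and 0.458 in melanotropes, beside 1.41 and 1.03 against 0.284 and 0.384 for the model of 6731 bases. Reads in exons that models share enter each of them, so these are not levels of separate transcripts.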
